A study of Mus musculus with 14 samples.

Results

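The replication-dependent histone genes encode the linker histone H1 and the core histones H2A, H2B, H3 and H4 that package newly copied DNA. They were taken as every gene with an array probe annotated to it alone and a symbol that began with H1f, H2ac, H2bc, H3c or H4c followed by a digit, with the probe of highest mean used where there were several. This gave 29 genes of the 22180 with a probe of their own, namely 8 of H1, 6 of H2A, 8 of H2B and 7 of H4. No H3 gene had a probe of its own. Of the 29 genes, 21 lie on chromosome 13 and 5 on chromosome 3, and these 26 carry an older symbol of the histone clusters (Hist1 or Hist2). H1f7, H1f8 and H1f10 have no such symbol and lie outside the clusters, and H1f10 belongs to a linker histone that is made throughout the cell cycle, so the rule also takes in genes that are not replication-dependent cluster genes.

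The cells studied were Sca1+/cKit- bone marrow cells, positive for the antigen Sca1 and negative for the stem cell factor receptor, sorted straight into lysis buffer. The hosts were female NCR-NU mice, a nude strain that lacks a functional thymus. Old tumor-bearing mice (3 arrays) and young tumor-bearing mice (3 arrays) carried primary tumors matched in size, and old cancer-free mice (5 arrays) and young cancer-free mice (3 arrays) carried Matrigel, the gel used as the tumor-free control. The labels give neither ages in months nor the type of tumor, and describe each array as a biological replicate, 1 mouse each. Sub-nanogram amounts of total RNA were amplified across the transcriptome, and biotin-labelled product was read on 1-colour arrays.

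Values are on the log2 scale after robust multi-array averaging (RMA), which gives the arrays a common distribution, so a difference of 1 is a doubling of the signal. The levels of different probes cannot be set against each other, and comparisons below are within a gene. A gene was tested where it exceeded the median of the whole table, 3.88, on at least 3 arrays, which 13805 genes did. The array medians lay between 3.81 and 3.93, and the mean correlation of an array with the other arrays was between 0.899 and 0.942. Ptprc, the CD45 antigen of leukocytes, lay between 10.53 and 11.36 on all arrays. Kit, the receptor the cells were sorted against, lay between 5.25 and 7.03, above the floor on every array. The Sca1 gene Ly6a was not analysed here. In sorted populations such as these, fewer cells of a type and less RNA per cell cannot be told apart.

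Histone messages of the clusters are made when DNA is replicated in S phase, and unlike other messenger RNAs they end in a stem-loop instead of a poly(A) tail. The coactivator NPAT drives their transcription at histone locus bodies, the stem-loop binding protein SLBP governs processing, translation and decay, and the messages are destroyed when replication stops. Core histones form the nucleosome, and H1 binds the linker DNA at its entry and exit. Because each class has many near-identical gene copies, a probe annotated to 1 gene may also pick up relatives, and single members are uncertain to that degree.

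The stretches just upstream of 6 members are shown because these genes carry the results below: the brightest probe of each class (H1f5, H2ac15, H2bc18 and H4c12), and H2bc12 and H4c9, whose values did not overlap between old and young cancer-free mice. They are the 200 bases before the start of the gene model in RefSeq, GRCm38.p6, read 5′ to 3′ on the gene's strand. H1f5 lies at chr13:21780626-21780825 on the minus strand, H2ac15 at chr13:21753913-21754112 on the minus strand, H2bc18 at chr3:96269500-96269699 on the plus strand, H2bc12 at chr13:22035621-22035820 on the plus strand, H4c12 at chr13:21750554-21750753 on the minus strand and H4c9 at chr13:22041363-22041562 on the minus strand. Capitals mark matches, on either strand, to TATAAA (the TATA box), CCAAT (the CCAAT box), ATTTGCAT (the octamer bound by OCT1), AAACACA (the H1 box) and GGTCCG (an H4 promoter element).
H1f5: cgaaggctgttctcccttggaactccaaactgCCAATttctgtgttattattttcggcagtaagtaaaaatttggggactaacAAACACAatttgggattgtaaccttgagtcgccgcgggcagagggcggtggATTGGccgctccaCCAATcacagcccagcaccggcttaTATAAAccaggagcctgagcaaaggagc
H2ac15: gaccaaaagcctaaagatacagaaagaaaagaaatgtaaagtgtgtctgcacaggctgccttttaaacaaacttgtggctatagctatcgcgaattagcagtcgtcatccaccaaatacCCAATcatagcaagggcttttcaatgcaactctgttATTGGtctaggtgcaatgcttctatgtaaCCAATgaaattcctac
H2bc18: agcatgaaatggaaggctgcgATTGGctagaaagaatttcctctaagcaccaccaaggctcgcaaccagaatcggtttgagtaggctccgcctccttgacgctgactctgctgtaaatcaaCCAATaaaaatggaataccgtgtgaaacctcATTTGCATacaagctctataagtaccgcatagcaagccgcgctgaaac
H2bc12: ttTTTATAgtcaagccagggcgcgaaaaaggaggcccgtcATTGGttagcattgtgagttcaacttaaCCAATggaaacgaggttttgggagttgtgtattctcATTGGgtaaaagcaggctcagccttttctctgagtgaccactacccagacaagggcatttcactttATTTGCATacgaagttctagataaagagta
H4c12: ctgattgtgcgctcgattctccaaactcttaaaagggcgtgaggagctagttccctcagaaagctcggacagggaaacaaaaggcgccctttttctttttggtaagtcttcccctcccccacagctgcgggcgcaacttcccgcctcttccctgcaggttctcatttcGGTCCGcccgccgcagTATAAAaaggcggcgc
H4c9: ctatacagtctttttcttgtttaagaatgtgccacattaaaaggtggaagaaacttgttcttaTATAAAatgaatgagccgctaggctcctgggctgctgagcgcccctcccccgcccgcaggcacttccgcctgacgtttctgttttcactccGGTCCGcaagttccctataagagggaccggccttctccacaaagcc

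A 250-base window before the start was found for 27 of the 29 genes, with none for H4c14 and H2bc21. The CCAAT box was in 20 of 27 windows, against 33.8% of 32851 RefSeq windows of the same length. It was in 6 of 6 windows of H2A, 7 of 7 of H2B and 6 of 8 of H1, and in 1 of 6 of H4, that of H4c1. The octamer was in 5 of 7 H2B and 3 of 6 H2A windows and in 0 of the H1 and H4 windows, against 1.6% of all windows. The H1 box was in 4 of 8 H1, 1 of 6 H2A, 2 of 7 H2B and 0 of 6 H4 windows (6.25% of all windows). The H4 element was in 3 of 6 H4, 1 of 8 H1, 1 of 7 H2B and 0 of 6 H2A windows (6.72%). TATAAA was in 13 of 27 windows (12.4%). In H1f5 it lay 28 to 23 bases before the start, and in H2bc12 the octamer lay 30 to 23 bases before it. No 2 matches overlapped in the printed stretches, and a match is a description of the letters, not a site in use. No relation between these letters and the differences below was tested.

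Of the 29 genes 20 passed the filter on dim genes, 5 in each of H1, H2A, H2B and H4. The 9 that did not pass, with array values between 1.10 and 4.71, were H1f7, H1f8, H1f10, H2ac12, H2bc1, H2bc14, H2bc22, H4c2 and H4c17. They include H1f7 of spermatids, the oocyte linker histone H1f8 and the testis H2B gene H2bc1, known from germ cells. H2ac12 had values of 4.71 and 4.68 in old cancer-free replicates 1 and 2 and stayed between 1.10 and 2.53 on the other arrays. Members that passed could do so through the arrays where they were high, so the counts below describe 20 genes and not all 29.

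The linker histone gene H1f5 had log2 values of 8.51, 9.51 and 10.13 in old tumor-bearing mice and 10.55, 10.50, 11.15, 7.49 and 8.11 in old cancer-free mice. In young tumor-bearing mice its values were 9.78, 11.00 and 10.64, and in young cancer-free mice 11.24, 10.86 and 11.42. The 3 young cancer-free arrays lay close together, while the old cancer-free arrays split into 3 at 10.50 or above and 2 at 8.11 or below. H1f2, another somatic linker histone, averaged 8.99 ± 0.29 in old tumor-bearing mice (SD, n = 3) and 8.93 ± 0.88 in old cancer-free mice (SD, n = 5). In young tumor-bearing mice H1f2 had values of 7.66, 9.59 and 8.15, and in young cancer-free mice it averaged 9.54 ± 0.26 (SD, n = 3). H1f3 averaged 5.20 ± 0.43 in old tumor-bearing mice (SD, n = 3), 5.86 ± 0.88 in old cancer-free mice (SD, n = 5), 5.37 ± 1.42 in young tumor-bearing mice (SD, n = 3) and 6.10 ± 0.71 in young cancer-free mice (SD, n = 3). H1f6, the linker histone gene of the testis, had group means between 3.68 and 4.21, at the floor.

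Among the H2A genes, H2ac15 had values of 9.71, 6.77 and 10.24 in old tumor-bearing mice and 10.39, 10.58, 11.16, 8.89 and 8.97 in old cancer-free mice. Young tumor-bearing mice had 10.18, 10.65 and 10.46, and young cancer-free mice had 10.98, 10.71 and 10.99. Old tumor-bearing replicate 2 lay lowest of all 14 arrays, and every young tumor-bearing array lay under every young cancer-free array. H2ac10 showed the same low arrays, with 8.60, 7.55 and 9.24 in old tumor-bearing mice and 9.36, 9.18, 9.90, 7.22 and 7.78 in old cancer-free mice. Its young values were 9.10, 9.83 and 10.06 in tumor-bearing mice and 9.92, 9.65 and 9.91 in cancer-free mice. Old cancer-free replicates 4 and 5 and old tumor-bearing replicate 2 were the 3 lowest of the 14, and the old and young ranges overlapped. H2ac21, a gene of the chromosome 3 cluster, averaged 7.52 ± 0.77 in old tumor-bearing mice (SD, n = 3), 6.87 ± 1.81 in old cancer-free mice (SD, n = 5), 8.59 ± 0.62 in young tumor-bearing mice (SD, n = 3) and 8.55 ± 0.22 in young cancer-free mice (SD, n = 3).

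Among the H2B genes, H2bc18 had values of 6.46, 6.64 and 6.27 in old tumor-bearing mice and 8.13, 7.75, 7.89, 6.53 and 5.51 in old cancer-free mice. Young tumor-bearing mice had 6.83, 7.37 and 7.37, and young cancer-free mice 7.75, 7.23 and 7.34. All 3 old tumor-bearing arrays lay under all 3 young tumor-bearing arrays, while the old cancer-free arrays lay on both sides of the young cancer-free ones. H2bc12 had values of 5.59, 6.74 and 5.74 in old tumor-bearing mice and 6.32, 7.05, 6.99, 4.57 and 3.34 in old cancer-free mice. Its young values were 5.85, 7.14 and 7.52 in tumor-bearing mice and 7.67, 7.07 and 7.42 in cancer-free mice. All 5 old cancer-free arrays were under the 3 young cancer-free ones, though the nearest arrays almost met, at 7.05 and 7.07. H2bc3 averaged 6.60 ± 0.52 in old tumor-bearing mice (SD, n = 3), 6.80 ± 1.05 in old cancer-free mice (SD, n = 5), 7.03 ± 0.41 in young tumor-bearing mice (SD, n = 3) and 7.43 ± 0.64 in young cancer-free mice (SD, n = 3).

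Among the H4 genes, H4c12 had values of 10.38, 10.26 and 10.74 in old tumor-bearing mice and 10.61, 10.85, 11.00, 9.44 and 9.23 in old cancer-free mice. Young tumor-bearing mice had 10.72, 10.81 and 11.11, and young cancer-free mice 10.89, 10.82 and 11.03. Apart from old cancer-free replicates 4 and 5, all arrays lay between 10.26 and 11.11. H4c9 went another way, with 5.06, 4.55 and 4.70 in old tumor-bearing mice and 5.71, 5.98, 5.64, 5.56 and 6.43 in old cancer-free mice. Its young values were 4.72, 4.91 and 4.58 in tumor-bearing mice and 5.29, 4.36 and 4.81 in cancer-free mice. All 5 old cancer-free arrays lay above the other 9, and replicate 5, the lowest of the group for H4c12 and H2bc12, was the highest for H4c9.

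H4c14, in the chromosome 3 cluster, had values of 7.88, 7.30 and 6.90 in old tumor-bearing mice and 7.59, 6.40, 7.29, 6.70 and 6.45 in old cancer-free mice. Young tumor-bearing mice had 5.47, 6.36 and 5.72, and young cancer-free mice 7.48, 6.21 and 6.28. The old tumor-bearing arrays all lay above the young tumor-bearing ones, and the cancer-free groups overlapped. H4c1 had values of 4.42, 5.88 and 3.60 in old tumor-bearing mice and 6.07, 6.62, 7.21, 6.13 and 4.65 in old cancer-free mice. Its young values were 4.15, 5.20 and 4.52 in tumor-bearing mice and 5.94, 4.30 and 7.01 in cancer-free mice. The tumor-bearing groups held the lower values, with overlap at both ages. H4c8 had values of 4.83, 2.33 and 3.04 in old tumor-bearing mice and 5.72, 5.53, 2.92, 3.81 and 3.21 in old cancer-free mice. Young tumor-bearing mice had 2.78, 3.03 and 1.83 and young cancer-free mice 5.04, 4.17 and 3.41, so that the 3 young tumor-bearing arrays lay under the floor of 3.88 and under the young cancer-free ones.

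**Figure D1:**
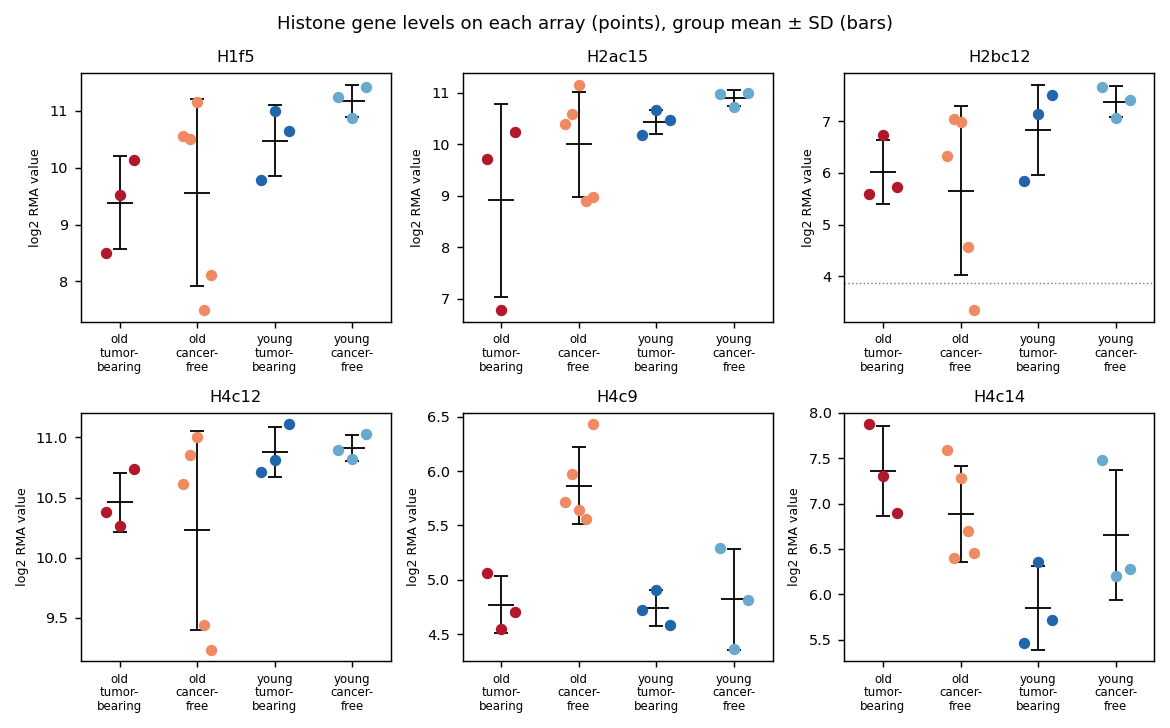
Log2 RMA values of 6 histone genes by group, with each array as a point and the group mean and SD as bars (3 old tumor-bearing, 5 old cancer-free, 3 young tumor-bearing and 3 young cancer-free arrays), and the floor of 3.88 dotted where it falls in the panel. H1f5, H2ac15, H2bc12 and H4c12 each have 2 old cancer-free arrays far under the other 3, whereas all 5 old cancer-free arrays of H4c9 lie above the other groups.

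Arrays of the same group differed widely in these genes. With 1 array per mouse, differences between mice and those from amplification or the array cannot be told apart. The median pooled within-group SD was 0.89 over the 20 tested histone genes, from 0.34 for H4c9 to 1.53 for H2ac20, against 0.34 over all 13805 genes tested, and 19 of the 20 lay above that overall median. Old cancer-free replicates 4 and 5 were the 2 lowest of their group for 12 of the 20 genes (60%), against 12.9% of all genes tested. The count was 4 of 5 for H2A, 4 of 5 for H2B, 3 of 5 for H1 and 1 of 5 for H4, and 5 of 5 among the genes whose mean exceeded 8 (H1f2, H1f5, H2ac10, H2ac15 and H4c12). The pair was singled out by its low values in these genes, so these shares are a description and not a test. The same holds for the count over 4 arrays below, which includes the pair. Leaving out this pair was added as an alternative after the low values were seen, and the values without it stand beside the comparisons below that use old cancer-free mice.

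**Figure D2:**
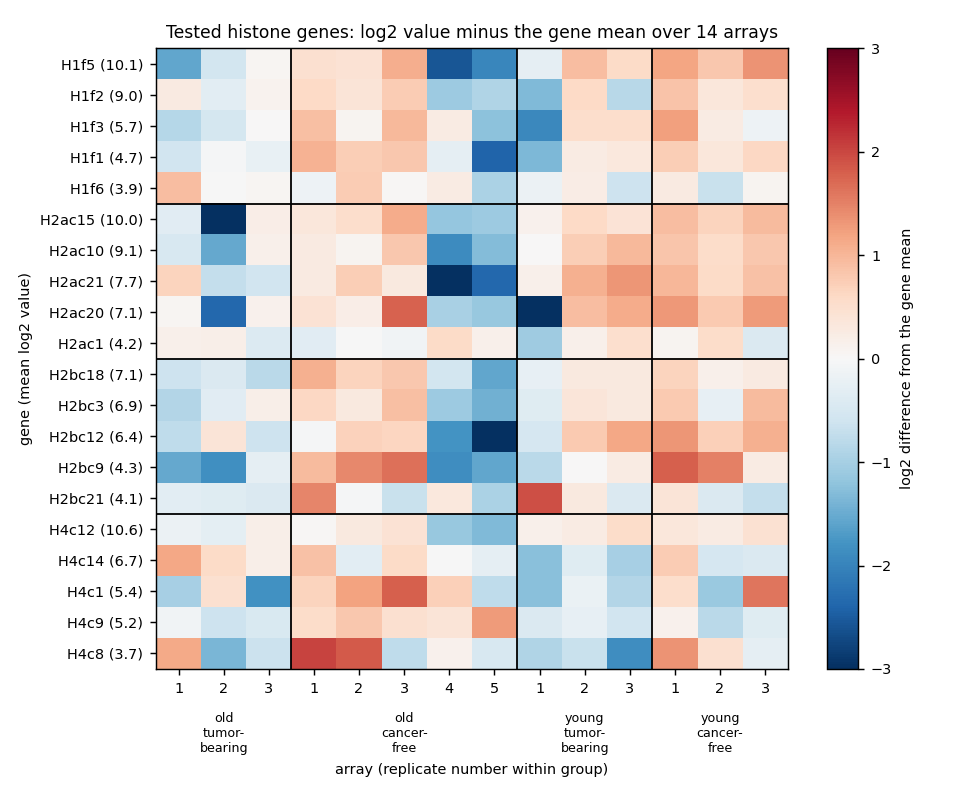
Each tested histone gene (rows, with its mean log2 value, grouped as H1, H2A, H2B and H4) on each of the 14 arrays (columns), coloured by its log2 value minus the gene's mean over all arrays, with the colour scale ending at 3 on either side. Old cancer-free replicates 4 and 5 are below the mean for most H1, H2A and H2B genes, and among the H4 rows H4c12 has both far below its mean, H4c14 has both slightly below, and H4c1, H4c8 and H4c9 do not have both below.

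The same arrays were low for other genes of proliferating cells. The median log2 value over 23 S phase genes was lowest in old tumor-bearing replicates 1 and 2 (5.20 and 5.58) and old cancer-free replicates 5 and 4 (5.61 and 5.62), with 5.83 or more on the other 10 arrays. Over 14 genes of mitosis the median was 4.84 and 4.67 in old tumor-bearing replicates 1 and 2 and 4.88 and 5.32 in old cancer-free replicates 4 and 5, with 5.93 or more elsewhere. These 4 arrays were also the lowest 4 of 14 for 5 of the 20 histone genes, against 81 of 13805 genes, and their mean correlations with the other arrays, 0.910 to 0.930, were within the range of the rest. Whether the number of cycling cells, the RNA of these arrays or something else sets this was not tested.

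**Figure D3:**
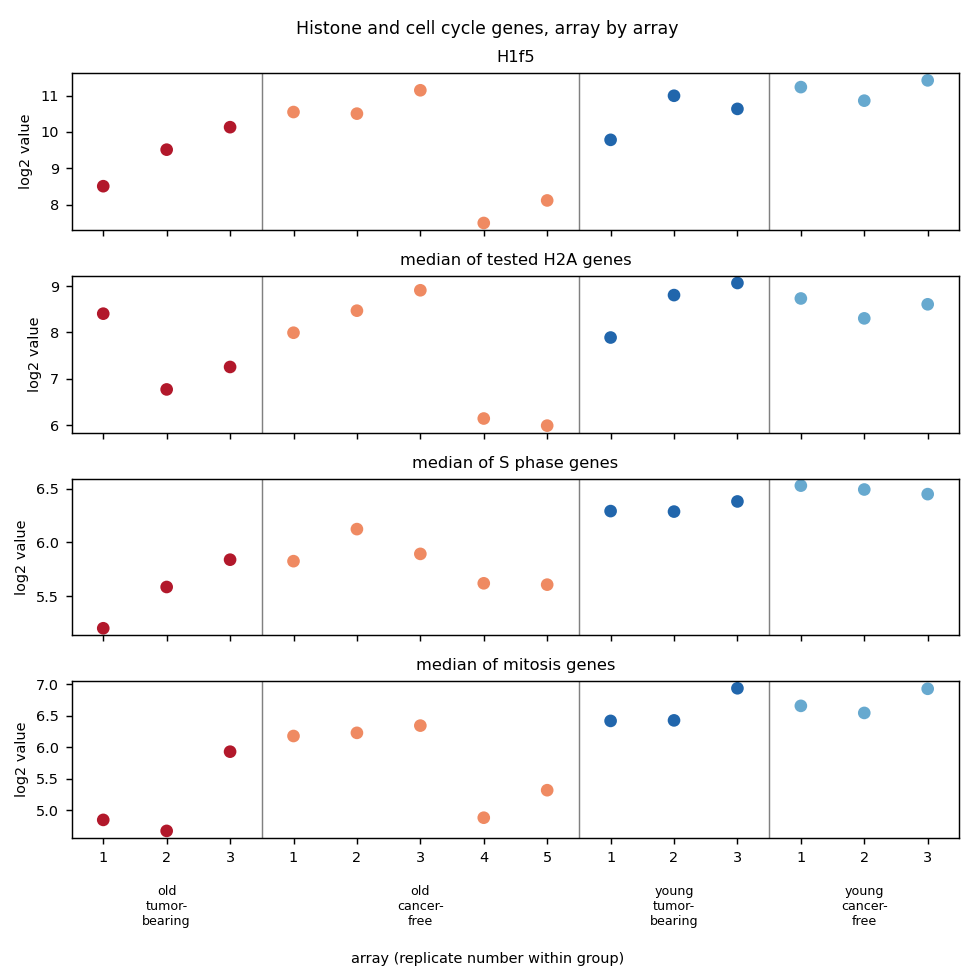
Log2 values by array for H1f5 and, as medians over genes, for the 5 tested H2A genes, 23 S phase genes and 14 mitosis genes, with arrays ordered by group and replicate number. Old cancer-free replicates 4 and 5 and old tumor-bearing replicates 1 and 2 are the lowest 4 arrays in the H1f5, S phase and mitosis panels, and in the S phase panel all 6 young arrays lie above all 8 old arrays.

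The first comparison set old against young hosts, as the mean of the differences in tumor-bearing and in cancer-free mice. H2A and H2B genes were mostly lower in old mice and H4 genes mostly higher, and none of the differences passed the test. H1 genes were mostly lower except when old cancer-free replicates 4 and 5 were left out. Without that pair H2B genes were lower in tumor-bearing mice but mostly higher in cancer-free mice. In limma, at a Benjamini-Hochberg adjusted p under 0.05 over all genes, 0 of the 20 histone genes were called, against 0.0869% of all genes (12 of 13805). At an unadjusted p under 0.05, 5 histone genes were lower (8.97% of all genes) and 2 higher (4.44%). In all, 14 of 20 had a negative difference (52% of all genes), and the median difference was -0.42, against -0.01 over all genes. Over all 29 members, the dim ones included, the median was -0.20. By class the medians were -1.17 for H2A, with 4 of 5 lower, -0.54 for H2B, with 5 of 5 lower, -0.20 for H1, with 4 of 5 lower, and 0.44 for H4, with 4 of 5 higher. The H4 median was 0.23 in cancer-free mice and 0.03 in tumor-bearing mice. H4c8, among the H4 genes that were higher, exceeded the floor on only 5 of the 14 arrays. No gene had all old arrays on 1 side of all young arrays (0.398% of all genes lower and 0.13% higher).

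The members with the smallest p for age were H4c14, higher in old mice by 0.87 ± 0.27 (SE, 1.83-fold, adjusted p = 0.203 in limma), and H4c9, higher by 0.54 ± 0.18 (adjusted p = 0.232 in limma). H2ac10 was lower by 2.25-fold, a log2 difference of -1.17 ± 0.40 (adjusted p = 0.238 in limma), and H1f5 by 2.55-fold, -1.35 ± 0.54 (adjusted p = 0.308 in limma). H2ac15, H2ac21 and H2bc12 followed at -1.21 ± 0.50, -1.37 ± 0.58 and -1.27 ± 0.54. The age difference of H4c12 was -0.55 ± 0.27, opposite to the other 4 tested H4 genes. Without old cancer-free replicates 4 and 5, the median over the 20 genes was -0.14, with 12 of 20 negative. H2ac10 was then at -0.78, H1f5 at -0.76, H2ac15 at -0.85, H2ac21 at -0.72, H2bc12 at -0.71 and H4c12 at -0.26, while H4c14 was at 0.97 and H4c9 at 0.49. The class medians without the pair were -0.72 for H2A, -0.23 for H2B and 0.49 for H4. That of H1 turned to 0.14, with 4 of 5 genes higher, so the lower H1 median rested on these 2 arrays.

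**Figure D4:**
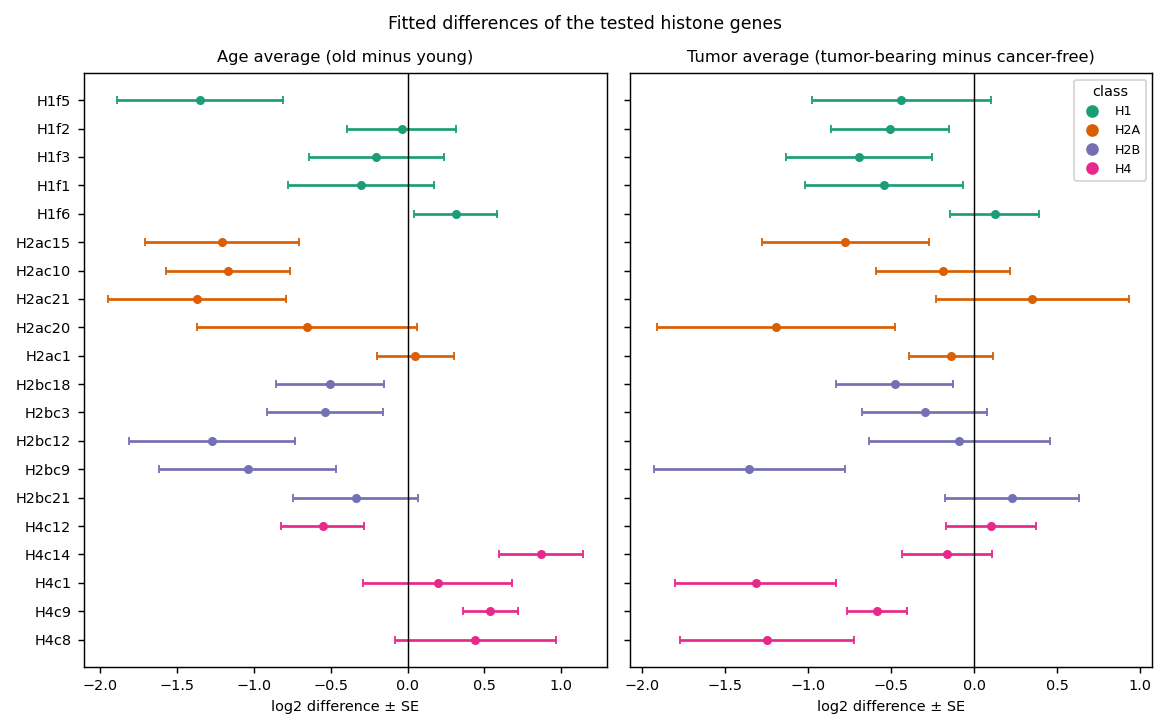
Fitted log2 differences ± SE of the 20 tested histone genes, for old minus young mice (left) and for tumor-bearing minus cancer-free mice (right), each averaged over the other factor. Old mice have lower values for all 5 H2B genes and higher ones for 4 of 5 H4 genes, and tumor-bearing mice have lower values for 16 of the 20, with no gene past the adjusted threshold in either panel.

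In cancer-free mice alone, the comparison of old with young hosts again had more genes lower than higher, with no call. Limma called 0 of the 20 histone genes (0% of all genes), 14 had negative differences (55.5% of all genes) and the median was -0.60, against -0.04 over all genes. At an unadjusted p under 0.05, 3 were lower (5.17% of all genes) and 1 was higher (2.48%). H4c9 was higher in old cancer-free mice by 1.05 ± 0.24 (2.06-fold, adjusted p = 0.448 in limma) with no overlap, as 2.9% of genes did, and H2bc12 was lower by -1.73 ± 0.72 (adjusted p = 0.637 in limma) with no overlap, as 4.4% did. H1f5 differed by -1.61 ± 0.72 and H2ac21 by -1.68 ± 0.77, with overlapping groups. Without replicates 4 and 5, H2bc12 was at -0.60, H1f5 at -0.44 and H2ac21 at -0.39. The median over the 20 genes was 0.14, with 8 of 20 negative, and H4c9 was at 0.96. The class median of H2B turned from -0.64 to 0.16, with 4 of 5 genes higher. That of H1 turned from -0.59 to 0.21, also with 4 of 5 higher, and that of H2A went from -1.07 to -0.32. Over all 29 members on all arrays the median was -0.24.

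In tumor-bearing mice, the comparison of old with young hosts had 13 genes lower (49.5% of all genes) and 7 higher, with a median of -0.33 against 0.00 over all genes and -0.24 over all 29 members. Limma called 0 histone genes (0% of all genes), and at an unadjusted p under 0.05 it had 0 lower (6.35% of all genes) and 1 higher (3.75%). That gene was H4c14, higher by 1.51 ± 0.41 (2.85-fold, adjusted p = 0.226 in limma) with no overlap, as 5.94% of genes did. H2bc18 was the 1 gene with all old arrays under all young ones (7.1% of genes), at -0.73 ± 0.53. H2ac15 differed by -1.52 ± 0.75, H2ac10 by -1.20 ± 0.60 and H2bc21, a gene of an H2B variant known from olfactory neurons, by -0.97 ± 0.60. No old tumor-bearing value of H2bc21 exceeded 3.81, under the floor of 3.88, so its difference is not an exact size. H2ac15 was at -0.45 without old tumor-bearing replicate 2, and H2bc21 at -0.29 without young tumor-bearing replicate 1, whose value of 6.05 was the highest of its 14. H2ac10 was at -0.74 without old tumor-bearing replicate 2.

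The second question was how the cells of tumor-bearing mice differ from those of cancer-free mice, averaged over age. Histone genes of all 4 classes were mostly lower in tumor-bearing mice, 16 of 20 (51.1% of all genes had a negative difference), with a median of -0.46 against -0.01 over all genes, and none passed the test. Over all 29 members the median was -0.19. Limma called 0 of 20 (0% of all genes), and at an unadjusted p under 0.05 it had 4 lower (6.01%) and 0 higher (4.23%). Of these 4, 3 were H4 genes. H4c9 was at -0.59 ± 0.18 (adjusted p = 0.370 in limma), H4c1 was at -1.32 ± 0.49 and H4c8 at -1.25 ± 0.52 (adjusted p = 0.406 and 0.456 in limma). H2bc9 was at -1.36 ± 0.58 (adjusted p = 0.462 in limma). In tumor-bearing mice the group means of H4c8 lay under the floor at both ages (3.40 in old and 2.55 in young mice). That of H2bc9 lay under it in old mice (3.10), so the differences of these genes are not exact sizes. The class medians were -0.59 for H4, -0.51 for H1, -0.30 for H2B and -0.19 for H2A. No gene had all tumor-bearing arrays on 1 side of all cancer-free arrays (0.145% of all genes lower and 0.123% higher). Without old cancer-free replicates 4 and 5 the median over the 20 genes was -0.75 with 18 of 20 negative, H2bc9 was at -1.97, H4c1 at -1.57, H4c8 at -1.49 and H4c9 at -0.54. The class medians were then -0.54 for H4, -0.92 for H1, -0.67 for H2B and -0.59 for H2A.

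Markers of other cell types stand beside this tumor comparison. Of 8 T cell markers 6 were lower in tumor-bearing mice (median -0.40), with 0 called in limma (0% of all genes) and 3 lower at an unadjusted p under 0.05 (6.01% of all genes), among them the T cell receptor subunits Cd3e, at -0.59 ± 0.25, and Cd3g, at -0.62 ± 0.24. The T cell median was -0.11 in old mice and -0.88 in young mice. Of 9 plasmacytoid dendritic cell markers 7 were lower (median -0.32). Their median was -0.57 in old mice and 0.23 in young mice, where 6 of 9 were higher. The median over 9 neutrophil and granulocyte precursor markers was 0.05. Kit was higher in tumor-bearing mice by 0.62 ± 0.20 (adjusted p = 0.379 in limma). The part of these differences in the histone values was not tested.

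In old mice, 14 of the 20 genes were lower in tumor-bearing than in cancer-free hosts (48.7% of all genes), with a median of -0.24 against 0.01 over all genes and -0.20 over all 29 members. Limma called 0 (0% of all genes), with 2 lower (5.56%) and 0 higher (4.2%) at an unadjusted p under 0.05. H4c9 was lower by 2.14-fold, -1.10 ± 0.24 (adjusted p = 0.197 in limma), with all 3 old tumor-bearing arrays under all 5 old cancer-free ones, as for 3.04% of genes, and no histone gene had the reverse (3.11%). H4c1 was at -1.51 ± 0.65, H2bc9 at -1.34 ± 0.77 and H2ac15 at -1.09 ± 0.67. H2ac15 was at -0.02 without old tumor-bearing replicate 2, and H4c1 was at -0.99 without old tumor-bearing replicate 3. Without old cancer-free replicates 4 and 5 the median over the 20 genes was -1.01 with 17 negative, H2bc9 was at -2.56, H2ac15 at -1.80 and H4c9 at -1.01.

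In young mice, 18 of the 20 genes were lower in tumor-bearing than in cancer-free hosts (52.8% of all genes had a negative difference), with a median of -0.51 against -0.02 over all genes and -0.26 over all 29 members. Limma called 0 (0% of all genes), with 0 lower (3.3%) and 0 higher (2.1%) at an unadjusted p under 0.05. In 4 genes every young tumor-bearing array lay under every young cancer-free array (7.37% of all genes did). These were H4c8 at -1.66 ± 0.78 (adjusted p = 0.886 in limma), H2bc9 at -1.38 ± 0.86, H1f1, a linker histone gene, at -0.83 ± 0.71, and H2ac15 at -0.47 ± 0.75. H1f2 was at -1.07 ± 0.53 and H4c14 at -0.81 ± 0.41, with overlap. Without young tumor-bearing replicate 1, whose value for H2ac20 was 3.63 against 8.06 and 8.24 in the other 2 arrays of its group, the median over the 20 genes was -0.10 and H1f2 was at -0.67. Without young tumor-bearing replicate 2 H1f2 was at -1.63, and without young cancer-free replicate 1 H4c14 was at -0.39.

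The tumor difference itself was compared between the ages, as old minus young. It was negative in 6 of the 20 genes (47.6% of all genes) and positive in 14, with a median of 0.23 against 0.02 over all genes and 0.07 over all 29 members. Limma called 0 (0% of all genes), with 1 lower (1.85%) and 1 higher (2.57%) at an unadjusted p under 0.05. H4c9 had -1.01 ± 0.36, since its tumor difference was -1.10 in old mice and -0.08 in young mice (adjusted p = 0.976 in limma). H4c14 had 1.28 ± 0.55, from 0.48 in old mice and -0.81 in young mice (adjusted p = 0.976 in limma). H1f2 had 1.13 ± 0.71 and H2bc21, above the floor on only 6 of the 14 arrays, -1.25 ± 0.81. Without old cancer-free replicates 4 and 5 the median over the 20 genes turned to -0.47 with 14 of 20 negative, and H1f2 was at 0.50, H2bc21 at -1.48, H4c9 at -0.92 and H4c14 at 1.07. Without young tumor-bearing replicate 1, H2bc21 was at -0.58 and H1f2 at 0.73, and without young cancer-free replicate 1 H4c14 was at 0.87. The 7 comparisons share arrays and are not independent of each other.

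H3 could be read only from probes annotated to several histone genes, which were fitted with all 24156 probes above the floor. There were 37 such probes, 34 of them distinct and 27 bright enough to test. The 6 with a mean over 9 were 3 of H2A, 2 of H2B and 1 of H3, and they were chosen for their brightness. The H3 probe, annotated to 8 H3 genes, had values of 8.97, 8.24 and 9.07 in old tumor-bearing mice and 9.29, 9.37, 9.54, 8.49 and 8.01 in old cancer-free mice. Young tumor-bearing mice had 8.91, 9.32 and 9.33, and young cancer-free mice 9.36, 9.27 and 9.42. Old cancer-free replicates 4 and 5 were the lowest of their group on all 6 of these probes.

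All 6 bright shared probes were lower in old mice and lower in tumor-bearing mice on average. For age the H2B probes were at -0.80 ± 0.34 and -0.82 ± 0.33, the H3 probe was at -0.42 ± 0.25, and the H2A probes were at -0.44 ± 0.26, -0.71 ± 0.23 and -0.85 ± 0.39. For tumor the 6 differences were small, between -0.27 ± 0.26 and -0.02 ± 0.39. Several of these probes name the same genes, so their signs are not separate readings. Over all 27 probes the signs were mixed for age, with 15 lower (49% of all probes) and 12 higher (51%), and for tumor 21 were lower (52.3%) and 6 higher (47.7%). The age average had 9 lower (6.84% of all probes) and 2 higher (4.69%) at an unadjusted p under 0.05, and limma called 0 (0.00828% of all probes). The tumor average had 1 lower (5.56% of all probes) and 1 higher (3.66%), with 0 called (0%). The 27 probes had no call in the other 5 comparisons either (0.00414% of all probes for age in tumor-bearing mice and for tumor in old mice). The medians were -0.42 for age and -0.17 for tumor, and without old cancer-free replicates 4 and 5 they were -0.15 and -0.47. The 6 bright probes were lower in old and in tumor-bearing mice without that pair too, between -0.53 and -0.19 for age and between -0.50 and -0.32 for tumor. The smallest adjusted p was that of another H3 probe with a mean of 5.12, higher in old mice by 1.07 ± 0.27 (adjusted p = 0.185 in limma), so that probes naming the same H3 genes differed in direction. The tested H4 probes were also mixed for age. The brightest, with a mean of 7.96, was at -0.47 ± 0.40, and the others were at 0.30 ± 1.03, 0.67 ± 0.50 and -0.05 ± 0.27.

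**Figure D5:**
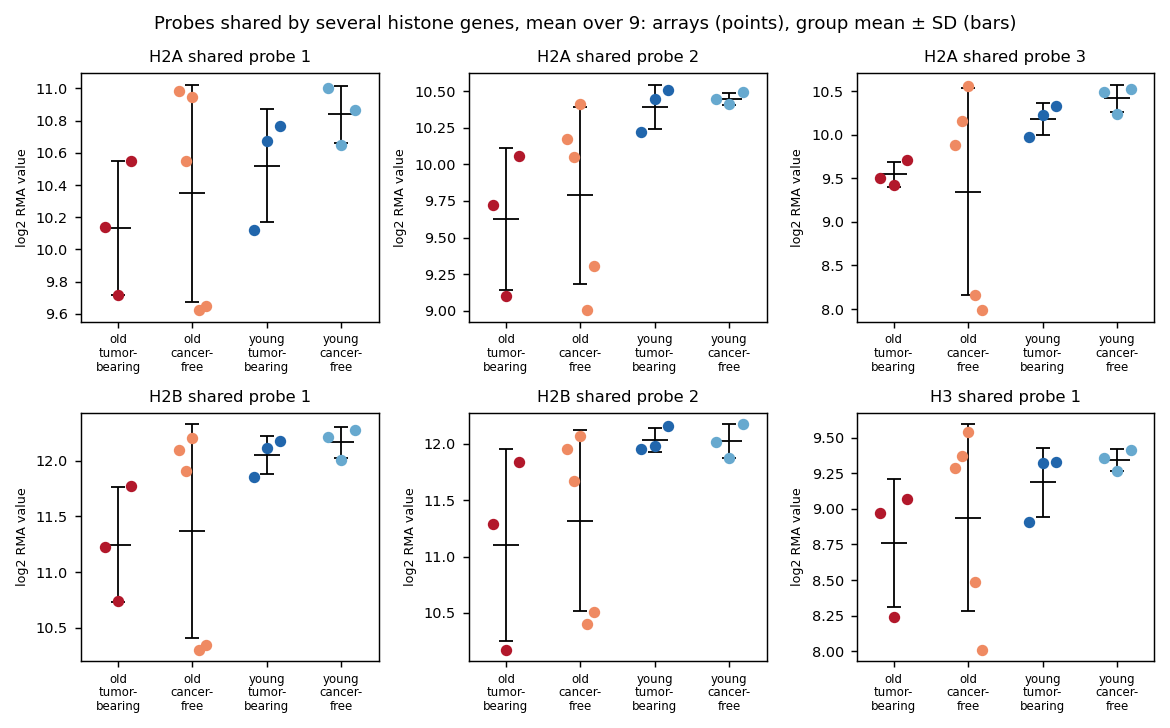
Log2 RMA values of the 6 probes annotated to several histone genes and with a mean over 9, by group, with each array as a point and the group mean and SD as bars (3 old tumor-bearing, 5 old cancer-free, 3 young tumor-bearing and 3 young cancer-free arrays). In each panel 2 old cancer-free arrays, replicates 4 and 5, lie well under the other 3, which are close to the young arrays.

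Of 19 tested genes that transcribe and process histone messages, 12 were lower (52% of all genes) and 7 higher in old mice (median -0.17), with 0 called (0.0869% of all genes) and 1 lower at an unadjusted p under 0.05 (8.97%). That gene was Npat, at -0.58 ± 0.21 (adjusted p = 0.265 in limma). Slbp differed by -0.31 ± 0.18, and Cpsf3, the endonuclease that cleaves histone and other pre-mRNAs, by 0.34 ± 0.16. For tumor, 11 of 19 were lower (51.1% of all genes; median -0.06) with 0 called (0% of all genes), and Eri1, the exonuclease that trims the stem-loop end, was at -0.41 ± 0.15 (adjusted p = 0.406 in limma).

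Of 19 tested genes of histone chaperones and nuclear import, 17 were lower in old mice (52% of all genes; median -0.29), 6 of them at an unadjusted p under 0.05 (8.97%), with 0 called in limma (0.0869%). Hat1, which acetylates newly made H4, had values of 7.27, 7.19 and 7.76 in old tumor-bearing mice and 7.31, 8.12, 8.23, 7.57 and 7.47 in old cancer-free mice. Its young values were 8.16, 9.01 and 8.46 in tumor-bearing mice and 8.63, 8.34 and 8.08 in cancer-free mice, so old and young arrays did not overlap in tumor-bearing mice and did in cancer-free mice. The age difference of Hat1 was -0.87 ± 0.20 (adjusted p = 0.0874 in limma). Mms22l, which acts with Tonsl at stalled replication forks, was at -0.93 ± 0.24, the H3.3 chaperone subunit Ubn1 at -0.64 ± 0.17, and Chaf1b, of the assembly factor CAF-1, at -0.48 ± 0.14. For tumor 12 of 19 were lower (51.1% of all genes; median -0.07) with 0 called (0%) and 1 lower at an unadjusted p under 0.05 (6.01%), the importin Ipo9, at -0.40 ± 0.13.

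Of 11 genes listed as replication-independent variants, 8 had a probe of their own and 6 were tested, so the list was only partly measured. All 6 were lower in old mice (52% of all genes; median -0.37), 2 of them at an unadjusted p under 0.05 (8.97%), with 0 called in limma (0.0869%). H2ax, whose protein is phosphorylated at DNA breaks, was at -0.95 ± 0.31, and Cenpa, the H3 variant of centromeres, at -0.51 ± 0.19. Cenpa was lower with age in cancer-free mice only, averaging 5.37 in old and 6.45 in young ones, against 5.61 and 5.55 in tumor-bearing mice. H2ax values were 8.34, 8.32 and 9.59 in old tumor-bearing mice and 9.70, 9.96, 9.78, 8.19 and 8.59 in old cancer-free mice, with the same 4 arrays low as for the S phase genes. In young mice they were 9.39, 10.17 and 10.15 in tumor-bearing hosts and 9.83 to 10.13 in cancer-free hosts. In tumor-bearing mice all 6 were lower (51.1% of all genes; median -0.25), with 0 called (0%) and 0 lower at an unadjusted p under 0.05 (6.01%).

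Of 23 S phase genes 21 were lower in old mice (52% of all genes; median -0.67), 17 of them at an unadjusted p under 0.05 (8.97%), with 0 called in limma (0.0869%). Pola1, the catalytic subunit of DNA polymerase alpha, was at -0.86 ± 0.15 (adjusted p = 0.0567 in limma) and Mcm3, of the replicative helicase, at -1.32 ± 0.24 (adjusted p = 0.0587 in limma). All 14 mitosis genes were lower (median -1.08), each at an unadjusted p under 0.05, with 0 called, and Bub1, a spindle checkpoint kinase, was at -1.21 ± 0.23 (adjusted p = 0.0601 in limma). For tumor 18 of 23 S phase genes (median -0.22) and 12 of 14 mitosis genes (median -0.25) were lower (51.1% of all genes), with 2 and 1 lower at an unadjusted p under 0.05 (6.01%) and 0 called (0%). Without old cancer-free replicates 4 and 5 the age medians were -0.55 for the S phase genes, -0.86 for mitosis, -0.32 for the chaperones and -0.29 for the variants, with 0 called. The tumor medians were then -0.31 for S phase, -0.52 for mitosis, -0.04 for the chaperones and -0.41 for the variants. For the genes that transcribe and process histone messages the age and tumor medians without this pair were -0.18 and -0.07.

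Markers of other cell types were also set beside the age comparison. The summed log2 level over 9 plasmacytoid dendritic cell markers was 45.4 to 53.9 in old tumor-bearing mice, 46.9 to 59.1 in old cancer-free mice, 60.7 to 64.6 in young tumor-bearing mice and 56.9 to 66.8 in young cancer-free mice. All 9 had negative age differences (52% of all genes; median -1.13), with 0 called in limma (0.0869%) and 7 lower at an unadjusted p under 0.05 (8.97%). Of 8 T cell markers 7 had positive age differences (median 0.77), 5 of them at an unadjusted p under 0.05 (4.44% of all genes) and 0 called, with sums of 63.3 to 66.8 in old tumor-bearing mice, 59.0 to 70.8 in old cancer-free mice, 53.1 to 62.4 in young tumor-bearing mice and 58.1 to 66.0 in young cancer-free mice. Over 10 neutrophil and granulocyte precursor markers, of which 9 were tested, the sums were 57.8 to 65.5 in old tumor-bearing mice, 52.8 to 73.4 in old cancer-free mice, 64.1 to 72.5 in young tumor-bearing mice and 65.5 to 66.9 in young cancer-free mice. The B cell progenitor markers Rag2 and Vpreb1 and the erythroid marker Rhag were under the floor in every group. However, 7 of the 9 B cell progenitor markers with a probe exceeded it in at least 1 group, as did 5 of 6 erythroid ones. Without old cancer-free replicates 4 and 5 the age medians were -1.21 for the plasmacytoid dendritic cell markers and 0.74 for the T cell markers. The neutrophil and granulocyte precursor median went from -0.59 to -0.16. The part of cell composition in the histone differences was not tested.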

How the data were processed

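The deposited table holds 14 arrays, 1 per mouse, and 41345 probes. Per the submitters' processing notes, the authors made its log2 values by RMA (R 3.2.0, oligo 1.32.0). The set of arrays normalised jointly is not stated there. RMA forces a common distribution, so a shift of most genes would not show. The number of arrays limits the precision, and p-values set the differences against the spread between these arrays, 1 per mouse.

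Of the probes, 23521 carried 1 symbol, 1814 several and 16010 none. The brightest probe of each gene was used, giving 22180 genes, of which 13805 passed the floor on at least 3 arrays. A means model of the 4 groups was run with limma 3.58.1 in R 4.3.3 (residual df 10, prior df 3.86), with 7 two-sided contrasts and Benjamini-Hochberg adjustment over all genes. The fit was tested on simulated data. Alternatives are listed in the closing section.

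The genes, lists and tests were chosen with earlier results of these data known. Named genes followed a rule: every called gene, the 3 brightest of each class, and the 4 with the smallest p in each comparison; array values were given for the 3 with the smallest p in the averages and the brightest of each class. H2bc18 and H1f1 in the comparisons where their groups did not overlap, H2ac20, H2ac12, Cd3e, Cd3g, H2bc12's array values and the array values of H2ax and Hat1 were chosen after their values were seen. H1f10 falls under the rule for the histone genes and was also in the list of variants. Promoter windows came from RefSeq tables.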

Additional observations from a re-analysis of the deposited data

Results flagged for a closer look

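The 29 histone genes, with the array medians, gave 30 items that were examined for an array far from the rest of its group, which was possible only in the 5 old cancer-free arrays. One stood out. H1f8, the oocyte linker histone gene, which did not pass the filter on dim genes, had a log2 value of 4.08 in old cancer-free replicate 2, against 3.25 to 3.38 in the other 4 arrays of the group. Chance marks about 1 in 20 such groups.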

How the results depend on the processing

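The calls and median differences were recomputed with no filter on dim genes, a stricter filter (4.40), median centring, cyclic loess, array weights, a robust prior with a trend in the variance, averaged probes per gene, only the groups compared (the 4 simple comparisons), the replicate number as a block, and without each array in turn. No alternative called a histone gene in any of the 7 comparisons, and the 28 recomputed differences of single named genes all kept their sign. These were the 4 genes with the smallest p in each comparison, a choice that favours stable signs. Other genes did reverse: without old cancer-free replicates 4 and 5 together, negative age differences in cancer-free mice went from 14 to 8 of the 20 genes. Leaving out 1 array gave medians over the histone genes of -0.80 to -0.17 for age in cancer-free mice, -0.62 to -0.09 for age in tumor-bearing mice, -0.59 to -0.05 for tumor in old mice and -0.74 to -0.10 for tumor in young mice. The ranges were -0.16 to 0.46 for the difference of the tumor effects, -0.60 to -0.26 for the age average and -0.57 to -0.27 for the tumor average, so the difference of the tumor effects had no settled sign. With the replicate number as a block the medians were 0.14 for age in cancer-free mice, -1.01 for tumor in old mice and -0.47 for the difference of the tumor effects. These equal the values without old cancer-free replicates 4 and 5 together (0.14, -1.01 and -0.47), an alternative chosen after seeing the data, because numbers 4 and 5 occur in that group alone. Same-numbered arrays showed little common deviation over the genes tested: their correlations lay between -0.08 and 0.09 over 18 pairs and 0 exceeded 0.1. Own-numbered arrays correlated best in 9 of the 18. A pairing that touched few genes would leave these correlations low, so whether the numbers pair the mice was not settled. Over all genes, the 12 calls of the age average became 80 with median centring, 57 with array weights, 0 with the replicate block and 1 without old cancer-free replicates 4 and 5, and leaving out 1 array gave 0 (without young cancer-free replicate 3) to 74 (without old tumor-bearing replicate 3), with no histone gene among them. Over all 29 genes the median was -0.20 for the age average and -0.19 for the tumor average, against -0.42 and -0.46 over the 20 tested.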
